A study of Homo sapiens with 6 samples.

Results

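The clustered protocadherins are cell-surface cadherins encoded in 3 neighbouring gene clusters on human chromosome 5, and they were followed here in neuroblastoma cells after knockdown of the long non-coding RNA GOMAFU. All symbols of the forms PCDHA1 to PCDHA13, PCDHAC1 and PCDHAC2, PCDHB1 to PCDHB16, PCDHGA, PCDHGB and PCDHGC were taken from the deposited expression table. That rule gave 53 of 26372 genes, and it used no measured value. The alpha cluster held 15 of them (13 alternate genes and 2 C-type genes), the beta cluster 16 and the gamma cluster 22 (12 of subfamily A, 7 of subfamily B and 3 of the C type). The table also listed 4 pseudogenes of the clusters, which were left out.

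The cells were BE(2)-M17, an established human neuroblastoma line, and polyadenylated RNA was sequenced in 6 libraries. Of these, 3 came from M17 cells labelled as GOMAFU knockdown (replicates 2, 3 and 4). The other 3 came from M17 cells labelled control (replicates 2, 3 and 4). Per the labels' protocols, small RNA was delivered with a lipid reagent (100 pmol), but neither the treatment of the control cells nor the knockdown sequence is given. No label states that replicates were separate cultures, so each p-value measures only the spread among these libraries, and that spread may be technical. All values come from 1 cell line. Wherever 3 values of a group are listed, they are those of replicates 2, 3 and 4 in that order. In bulk RNA of this kind, fewer cells expressing a gene and less of its RNA per cell cannot be told apart.

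Clustered protocadherins are known for giving neurons a surface identity. Each alternate gene of the alpha and gamma clusters has its own promoter and its own large first exon, which codes for the extracellular cadherin repeats, the membrane span and a short tail, and which is spliced to constant exons that all genes of that cluster share. Beta genes have a single coding exon and no shared constant exons. In mature neurons the alternate promoters are chosen largely at random by CTCF and cohesin, the C-type genes are used more regularly, and the proteins bind like with like between membranes, so that branches of 1 cell recognise and avoid each other.

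Values are FPKM, fragments scaled by transcript length and by the mapped total, as the authors deposited them; they are per length, so levels of different genes can be set side by side. In the GENCODE 29 annotation the alpha members share 19.2% to 56.6% of their exonic bases with another member, and the gamma members 27.6% to 64.4%. The beta members share none. Fragments from shared exons can be assigned to any gene of the cluster, so the alpha values depend on one another, as do the gamma values, and single members there are uncertain. In RefSeq (GRCh38.p14, plus strand) the alpha cluster lies at chr5:140786140-141012347, the beta cluster at chr5:141051374-141249365 and the gamma cluster at chr5:141330514-141512975.

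Most promoters of these genes are known to carry a short conserved element with CGCT at its core. RefSeq windows from 250 bases before to 50 bases after the start were found for 47 of the 53 members; PCDHA3, PCDHA13, PCDHB6, PCDHB11, PCDHGA12 and PCDHGC5 had none. CGCT, on either strand, was present in 46 of the 47 windows, all but that of PCDHA9, against 70.01% of 35116 windows of the same length over all genes. The examples printed here are the highly expressed members of each cluster, with the 12 bases on either side of CGCT (capitals). Where a window held several CGCT, the one whose surroundings were most like those of the other members was taken. From the beta cluster, the genes of the highest level and, last, PCDHB1, which was almost undetected, read as follows.
PCDHB4 (chr5:141121727-141121754, plus strand): gacgcagggtggCGCTgcaggctaagtt
PCDHB10 (chr5:141192303-141192330, plus strand): gccacacggtggCGCTgcaggctaaaga
PCDHB9 (chr5:141187078-141187105, plus strand): gccacaaggtggCGCTgcagactgaaga
PCDHB15 (chr5:141245318-141245345, plus strand): aacgcatggtggCGCTgcaggctaaggc
PCDHB1 (chr5:141051278-141051305, plus strand): ggggagttgagtCGCTcaatgcaaattt

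The 4 expressed beta examples share GGTGGCGCT, and PCDHB1 does not hold it. Low beta genes hold it too, among them PCDHB3, PCDHB8 and PCDHB7, with control means of 0.0309, 0.168 and 0.280 FPKM. Over the windows, on both strands, GGTGGCGCT was present in 13 of 14 beta members and in no alpha or gamma member, against 0.501% of all promoters. This string and the 3 that follow were chosen after the windows had been read, each contains CGCT, and they overlap. From the alpha cluster, 3 alternate genes and a C-type gene read as follows.
PCDHA10 (chr5:140855845-140855872, plus strand): gccaccggatgtCGCTgtcgtccacaaa
PCDHA8 (chr5:140841134-140841161, plus strand): gccacatgatgtCGCTgtctaccaagaa
PCDHA2 (chr5:140794785-140794812, plus strand): gccacatgatgtCGCTgtccaccataga
PCDHAC2 (chr5:140966369-140966396, plus strand): gcagtccgggttCGCTgtccgccacttc

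The alternate alpha examples share ATGTCGCT, which was present in 9 of 11 alternate alpha windows and in 0.234% of all promoters. PCDHAC2 lacks it. From the gamma cluster, the C-type genes PCDHGC3 and PCDHGC4 and the alternate gene PCDHGA1 are given with PCDHGB4 and PCDHGB5, whose 28 bases are identical although both are among the lowest members.
PCDHGC3 (chr5:141475884-141475911, plus strand): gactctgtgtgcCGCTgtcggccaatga
PCDHGC4 (chr5:141484956-141484983, plus strand): gagcccgggagcCGCTgtctgccaatcg
PCDHGA1 (chr5:141330407-141330434, plus strand): gactgtgggcgcCGCTgttcactaatct
PCDHGB4 (chr5:141387621-141387648, plus strand): gactctgggcgcCGCTgttggccaaagt
PCDHGB5 (chr5:141397867-141397894, plus strand): gactctgggcgcCGCTgttggccaaagt

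These gamma examples share GCCGCTGT, which was present in 11 gamma windows (5 of subfamily A, 4 of B and 2 of the C type) and in 1.63% of all promoters. GTCGCTGT was present in 5 alternate alpha, 5 gamma A and 1 gamma B windows, and in 0.652% of all promoters. The median distance from the first base of the CGCT box to the start was 55 bases (alpha), 61.5 bases (beta) and 60 bases (gamma). The ranges were 38 to 95, -3 to 84 (below 0 lies after the start) and 39 to 199 bases. The 199 was that of PCDHGB2, whose window was set on a start downstream of its gene start (chr5:141359994). Its 28 bases lie at chr5:141359925-141359952, so 199 overstates the distance to that gene start. The gamma median includes this value. Some chosen boxes were little like those of their cluster. Their mean best identity to other members was 10.26 of 28 bases (PCDHGB7), 11.08 (PCDHAC1), 12.58 (PCDHAC2) and 12.92 (PCDHB1). The highest was 22.69 (PCDHB13). Those 4 CGCT need not be the conserved element. Every box was chosen by likeness alone, so the same holds for others, such as that of PCDHGC4 (16.74). A longer consensus motif of CTCF, searched on both strands, had no match in the 47 windows and was present in 0.0655% of all promoters. With an exact match that rare, its absence from 47 windows cannot tell whether they hold CTCF sites. These are matches of letters and say nothing of binding in these cells.

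The knockdown was checked on GOMAFU itself, listed as MIAT. MIAT stood at 1.27, 1.32 and 3.21 FPKM in knockdown, against 5.38, 5.96 and 8.57 FPKM in control, so the groups did not overlap. Its knockdown mean was 29.2% of the control mean (log2 difference -1.42, SE 0.27), and an exact two-sided permutation test gave p = 0.1, the smallest that 3 against 3 libraries allow. With limma over 12164 genes its unadjusted p of 0.00125 was the smallest of the table, with an adjusted p of 0.9998. Relative depth, with control replicate 3 set to 1, was 1.07, 1.36 and 1.06 in knockdown, and 1.10 and 0.972 in control replicates 2 and 4. Knockdown replicate 3 was thus the deepest library. In its expression profile, knockdown replicate 4 stood apart. Its log2 profile correlated with the other libraries at 0.940 to 0.956, and pairs of the others reached 0.997. The median log2(FPKM + 1) of 16 interferon-response genes was 4.26, 1.27 and 7.93 in knockdown, against 0.45, 0.43 and 0.31 in control. Of the adrenergic neuroblastoma markers, PHOX2A, HAND2, GATA3, GATA2 and MYCN were above 140 FPKM in every library. TH, the enzyme that starts catecholamine synthesis, stayed below 0.09 FPKM in every library. Of the mesenchymal markers, VIM and TWIST1 were abundant as well, averaging 249 and 166 FPKM. These genes made up nearly all of the list sums (352 to 456 FPKM in knockdown and 374 to 461 FPKM in control). The other mesenchymal markers were low or absent. SNAI2 averaged 4.26 FPKM, CD44 1.01 FPKM, FN1 0.642 FPKM and YAP1 0.00218 FPKM, and PRRX1 was listed at 0 in all 6 libraries. Markers of glia, blood and epithelium all averaged below 1 FPKM, and each of these 3 lists summed to at most 2.63 FPKM in a library.

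Most clustered protocadherins were at low levels in this line, and PCDHGC3 carried a large share of what there was. At or above 1 FPKM stood 17, 16 and 19 members in knockdown, against 17, 16 and 20 in control. The set was stable, with 15 members at or above 1 FPKM in all 6 libraries and 32 in none. At a level of 0.1 FPKM, 44 members were present in every library. The control means of the members had a median of 0.589 FPKM. Averaged over all 6 libraries, 32.1% of the members and 46.1% of all listed genes reached 1 FPKM.

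**Figure D1:**
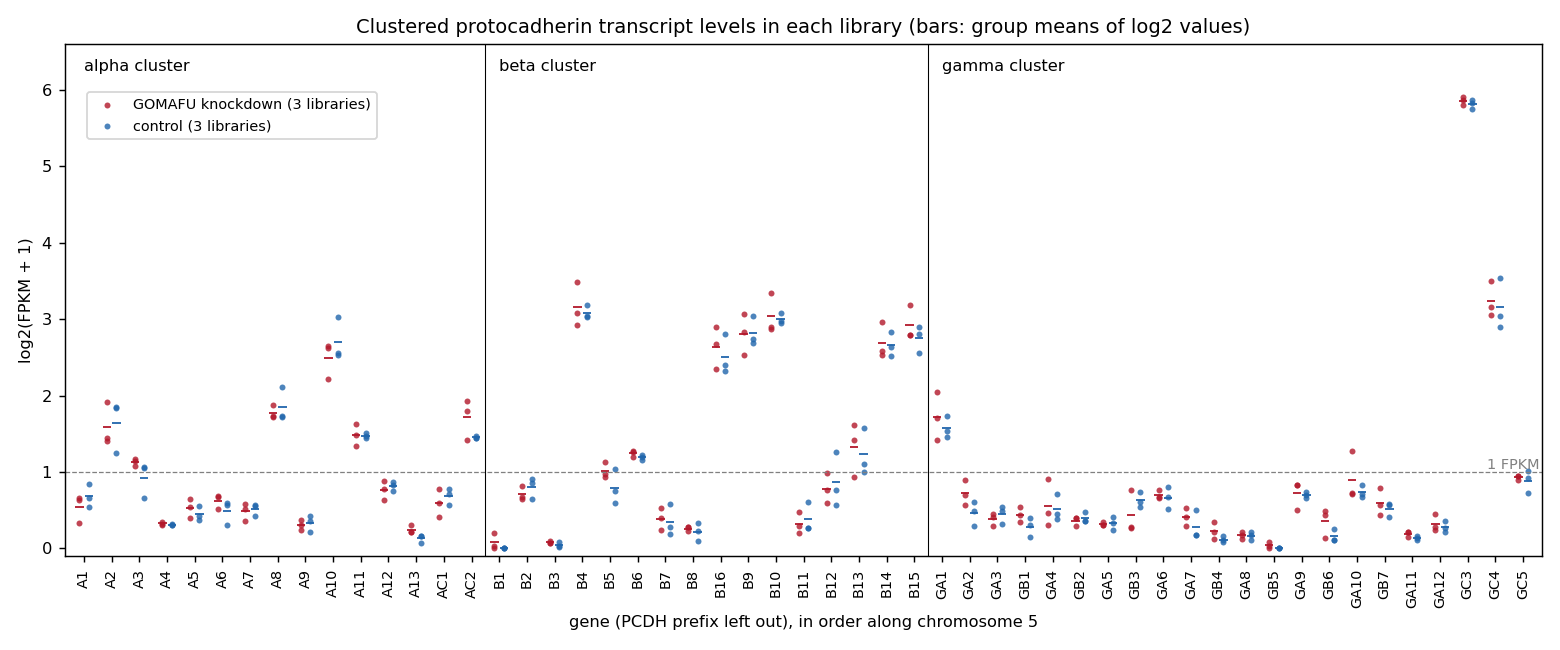
Levels of the 53 genes in each library, as log2(FPKM + 1) on the vertical axis, with genes in chromosomal order on the horizontal axis; points are the 3 knockdown (red) and 3 control (blue) libraries and short bars are group means. PCDHGC3 stands far above all others, a block of beta genes lies near 5 to 8 FPKM, and knockdown and control points overlap for nearly every gene.

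PCDHGC3, a C-type gamma gene, was the most abundant member. PCDHGC3 measured 55.0, 57.1 and 59.1 FPKM in knockdown, against 57.3, 55.6 and 52.7 FPKM in control. All 6 values lay close together, the groups overlapped, and the means were 57.1 ± 2.06 FPKM in knockdown and 55.2 ± 2.32 FPKM in control (SD, n = 3 each). The gene alone made up 41.1% of the members' summed FPKM in knockdown and 41.6% in control, and it ranked 1516 among all genes by mean level. The log2 difference was 0.05 (SE 0.07, 95% interval -0.12 to 0.21), the narrowest interval of the family.

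In the order of control means, PCDHGC4 followed, then PCDHB4, PCDHB10, PCDHB9, PCDHB15, PCDHA10, PCDHB14 and PCDHB16, all between 4.75 and 8.07 FPKM. Control values of neighbours in this stretch overlapped, so their order was not resolved by 3 libraries. Below them came PCDHA8, PCDHA2, PCDHGA1, PCDHA11, PCDHAC2, PCDHB13, PCDHB6 and PCDHA3, between 0.915 and 2.65 FPKM. Over the whole order, control values failed to overlap in only 5 of 52 neighbouring pairs, and 3 of these lay among the first 17 genes: PCDHGC3 over PCDHGC4, PCDHB16 over PCDHA8, and PCDHB6 over PCDHA3.

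The 17 members that averaged 1 FPKM or more were tested in the fit of all 12164 genes that met that limit (limma on log2(FPKM + 1), a scale that understates changes of low genes; knockdown minus control; Benjamini-Hochberg adjustment; threshold 0.05). They were 6 alpha, 8 beta and 3 gamma genes. None passed, each with an adjusted p of 0.9998, and 0 of 17 had an unadjusted p under 0.05. Over all genes 0% passed the threshold, and 2.16% had an unadjusted p under 0.05. The fitted difference was above 0 for 13 members and below 0 for 4, against 46.7% of all genes above and 53.3% below. Their median difference was 0.05, and that of all genes was -0.01. The excess above 0 rested on knockdown replicate 4: without it, 7 members lay above 0 and 10 below, and the median was -0.05. Without both libraries numbered 4, 8 lay above and 9 below.

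**Figure D2:**
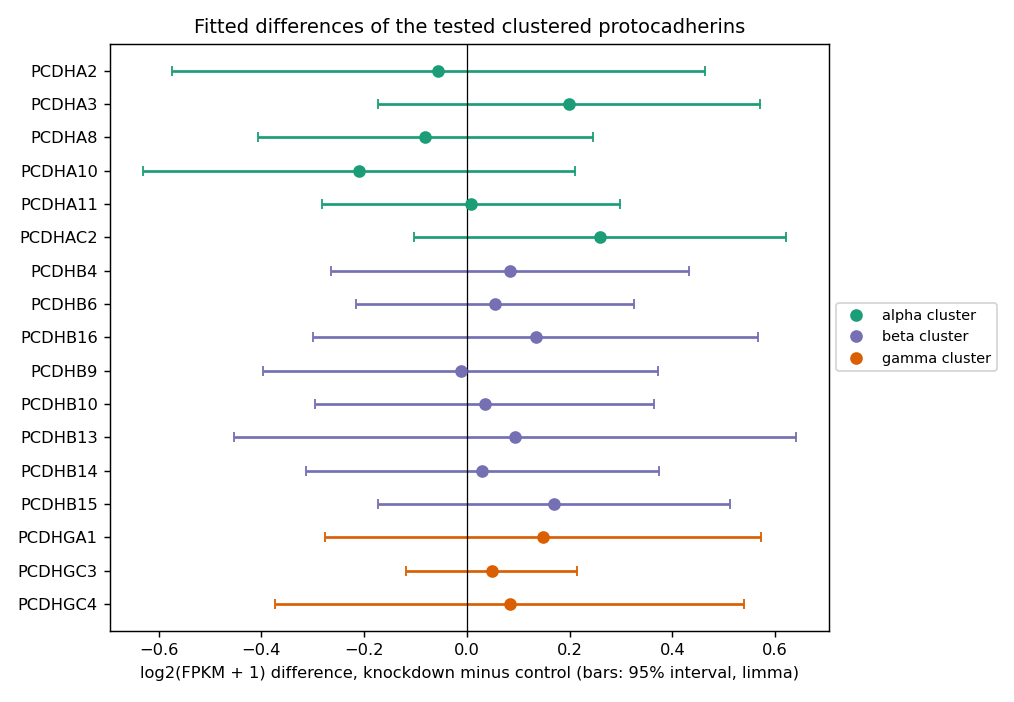
Fitted log2(FPKM + 1) differences, knockdown minus control, on the horizontal axis for the 17 tested members, coloured by cluster, with 95% intervals from limma. Every interval spans 0, from PCDHA10 at -0.21 to PCDHAC2 at 0.26.

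In the alpha cluster, 3 tested genes lay above 0 and 3 below, with a median of -0.02; without control replicate 4 it was 5 above and 1 below, with a median of 0.05. PCDHA10, an alternate gene and the most abundant alpha member, had 5.27, 3.64 and 5.17 FPKM in knockdown, against 4.79, 4.89 and 7.12 FPKM in control. The lowest value was knockdown replicate 3 and the highest control replicate 4, and the other 2 knockdown values lay above the other 2 control values. This was the most negative difference of the family (log2 -0.21, SE 0.18, 95% interval -0.63 to 0.21), with an unadjusted limma p of 0.277 and an adjusted p of 0.9998. It rested on those 2 libraries, being -0.069 without knockdown replicate 3, -0.051 without control replicate 4 and -0.0068 with libraries weighted. PCDHAC2, the more abundant C-type alpha gene, stood at 2.48, 1.67 and 2.80 FPKM in knockdown, against 1.73, 1.73 and 1.77 FPKM in control. Its control libraries were nearly identical, and knockdown replicate 3 lay below all of them while the other knockdown libraries lay above. The difference was the most positive of the family and had its smallest p (log2 0.26, SE 0.15, 95% interval -0.10 to 0.62), an unadjusted limma p of 0.135 and an adjusted p of 0.9998. It was 0.41 without knockdown replicate 3 and 0.15 without knockdown replicate 4. Exact two-sided permutation tests gave p = 0.6 for PCDHA10 and p = 0.4 for PCDHAC2.

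PCDHA3, an alternate gene, was the 1 tested member whose groups did not overlap. It stood at 1.24, 1.10 and 1.20 FPKM in knockdown, against 1.08, 0.584 and 1.09 FPKM in control. The gap between the groups was narrow, and control replicate 3 lay well below the rest. Without control replicate 3 the log2 difference of 0.20 (SE 0.16) was 0.07. Over all genes tested, 4.01% had knockdown values all above control values and 4.35% all below, 8.36% in either direction, so 1 of 17 is near the background. An exact two-sided permutation test on PCDHA3 gave p = 0.1, the smallest possible.

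PCDHA8 had 2.30, 2.32 and 2.66 FPKM in knockdown, against 2.30, 2.33 and 3.32 FPKM in control. Replicates 2 and 3 of both groups coincided almost exactly, and both libraries numbered 4 were higher. PCDHA2 had 1.73, 1.64 and 2.76 FPKM in knockdown, against 1.37, 2.59 and 2.59 FPKM in control. PCDHA11 had 2.10, 1.80 and 1.52 FPKM in knockdown, against 1.86, 1.72 and 1.78 FPKM in control. These 3 alternate alpha genes had log2 differences of -0.08 (PCDHA8), -0.06 (PCDHA2) and 0.01 (PCDHA11), all within their standard errors of 0.12 to 0.22. The summed alpha level was 18.4, 16.3 and 19.9 FPKM in knockdown, against 16.9, 17.5 and 21.6 FPKM in control. These sums averaged 18.2 ± 1.79 FPKM in knockdown and 18.7 ± 2.52 FPKM in control (SD, n = 3 each).

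In the beta cluster, 7 of the 8 tested genes lay above 0 and 1 below, with a median of 0.07. Without knockdown replicate 4 the direction turned, with 3 above, 5 below and a median of -0.07, and without both libraries numbered 4 it was 4 above and 4 below. Beta genes are of particular use here because no exon is shared, so each value stands for its own gene apart from reads that fit similar sequences. PCDHB4, the most abundant of them, had 7.49, 6.61 and 10.2 FPKM in knockdown, against 7.12, 7.24 and 8.06 FPKM in control. Knockdown replicate 4 was the highest library and knockdown replicate 3 the lowest, so the control libraries lay inside the knockdown range. PCDHB10 had 6.33, 6.43 and 9.15 FPKM in knockdown, against 6.87, 6.71 and 7.47 FPKM in control. PCDHB15, with the most positive beta difference, had 5.92, 5.95 and 8.10 FPKM in knockdown, against 4.88, 6.01 and 6.47 FPKM in control. For both genes the highest library of each group was replicate 4, and the groups overlapped. The log2 differences were 0.08 (SE 0.15) for PCDHB4, 0.03 (SE 0.14) for PCDHB10 and 0.17 (SE 0.15) for PCDHB15, and that of PCDHB15 was 0.039 without knockdown replicate 4.

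PCDHB9 had 6.10, 4.76 and 7.39 FPKM in knockdown, against 5.67, 5.42 and 7.23 FPKM in control. PCDHB14 had 5.01, 4.77 and 6.80 FPKM in knockdown, against 4.73, 5.21 and 6.15 FPKM in control. PCDHB16 had 5.38, 4.09 and 6.48 FPKM in knockdown, against 4.01, 4.26 and 5.98 FPKM in control. These 3 genes showed the same pattern again, highest in both libraries numbered 4, with log2 differences of -0.01, 0.03 and 0.13 (SE 0.16, 0.15 and 0.18). That of PCDHB16 was 0.0025 without knockdown replicate 4. PCDHB13 had 1.66, 0.910 and 2.07 FPKM in knockdown, against 1.01, 1.16 and 1.97 FPKM in control. PCDHB6 had 1.42, 1.41 and 1.29 FPKM in knockdown, against 1.23, 1.29 and 1.33 FPKM in control. PCDHB6 was the steadiest of the beta genes and the 1 tested beta gene that was not highest in knockdown replicate 4.

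**Figure D3:**
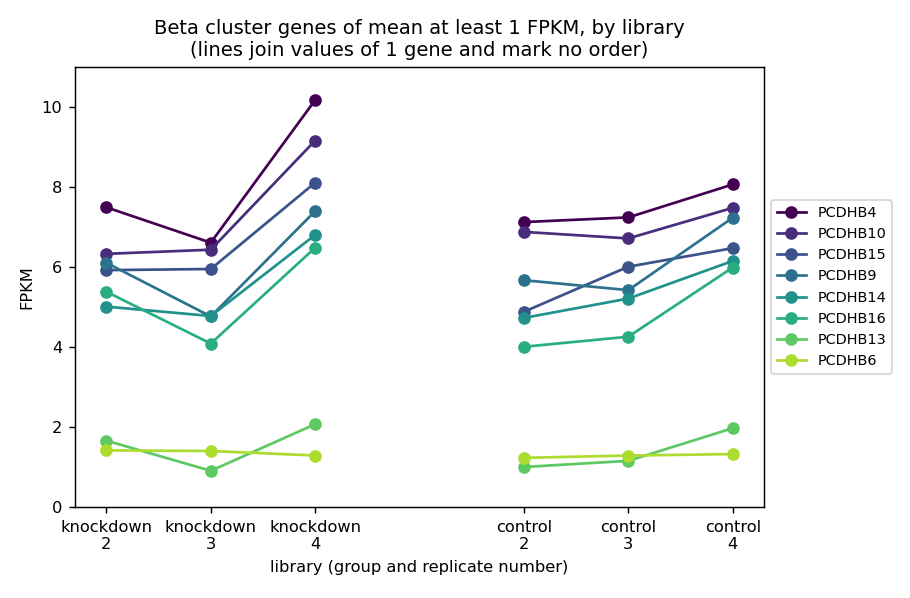
FPKM (vertical axis) of the 8 tested beta genes in each of the 6 libraries (horizontal axis), knockdown at left and control at right; lines join values of 1 gene and mark no order. All but PCDHB6 peak in replicate 4 of both groups.

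Within the beta cluster, the libraries numbered 4 stood further from the others than the group means stood from each other. Replicate 4 was the highest of its group in both groups for 13 of the 16 beta members and 7 of the 8 tested. Knockdown replicate 4 alone was the highest of its group for 14 of the 16 and for 7 of the 8 tested, against 41.2% of all genes tested. Among genes of mean 1 to 10 FPKM that share was 50.9%. For both groups at once the share among all genes tested was 26.1%, and among the 5414 genes of mean 1 to 10 FPKM it was 33.3%. In the alpha cluster it was 4 of 15 members and in the gamma cluster 7 of 22. The shares over all genes cover only genes of mean at least 1 FPKM, and 8 of the 16 beta members lie below that. No share was taken for genes that low. The summed beta level was 42.3, 37.5 and 55.6 FPKM in knockdown, against 37.7, 39.9 and 49.3 FPKM in control. Knockdown replicate 4 lay 39.4% above the mean of the other knockdown libraries, and control replicate 4 lay 27.1% above the mean of the other controls, while the group means of 45.2 ± 9.39 FPKM in knockdown and 42.3 ± 6.16 FPKM in control differed by 6.77% (SD, n = 3 each). Interferon-response genes were high in knockdown replicate 4, as given above, but in control replicate 4 they were at the lowest median of the 6 libraries; their part in the beta values of knockdown replicate 4 was not tested. What the number 4 stands for is not given in the labels.

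**Figure D4:**
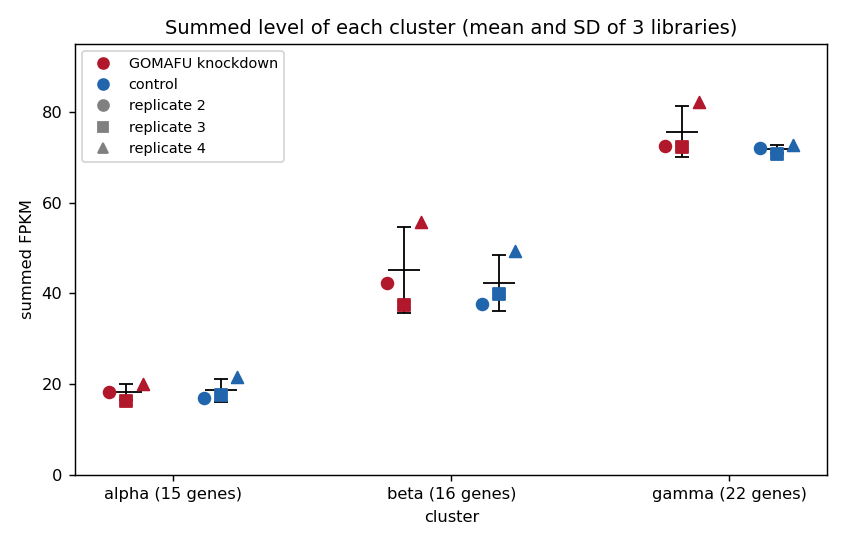
Summed FPKM (vertical axis) of each cluster (horizontal axis) in the 3 knockdown (red) and 3 control (blue) libraries, with mean and SD; marker shapes give the replicate number. In the beta cluster the triangles, replicate 4, are highest in both groups, at 55.6 FPKM in knockdown and 49.3 FPKM in control.

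In the gamma cluster all 3 tested genes lay above 0, with a median of 0.08; without knockdown replicate 4 it was 1 above and 2 below, with a median of -0.01. PCDHGC4, a C-type gene, had 7.93, 7.28 and 10.4 FPKM in knockdown, against 7.23, 6.41 and 10.6 FPKM in control. Each knockdown library lay close to the control library of like number, and the log2 difference was 0.08 (SE 0.19). PCDHGA1, the first alternate gene of the cluster, had 2.25, 1.67 and 3.12 FPKM in knockdown, against 1.74, 2.32 and 1.89 FPKM in control. Knockdown held both its lowest and its highest value, and the log2 difference of 0.15 (SE 0.18) was -0.01 without knockdown replicate 4. Summed gamma levels were 72.4, 72.3 and 82.2 FPKM in knockdown, against 72.0, 70.8 and 72.7 FPKM in control. The 5 values other than knockdown replicate 4 lay within 2 FPKM of one another, and PCDHGC3 alone held most of each sum. Without PCDHGC3, both libraries numbered 4 were higher, by 41.3% in knockdown and 33.7% in control. These sums include PCDHGC4, which was high in control replicate 4. Against the mean of the other controls, that library stood at 19.1% for gamma A sums and -1.87% for gamma B sums. Only 7 of 22 gamma members were highest in both libraries numbered 4.

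The 36 members below a mean of 1 FPKM were 9 alpha, 8 beta and 19 gamma genes, with means of 0.0147 to 0.884 FPKM and a median of 0.321 FPKM. PCDHB5, at 0.884 FPKM, and PCDHGC5, the remaining C-type gamma gene, at 0.880 FPKM, lay just under the limit. PCDHB5 had 0.969, 0.904 and 1.20 FPKM in knockdown, against 0.676, 0.509 and 1.05 FPKM in control. Among the 7 gamma B genes, which were low throughout, PCDHGB7 had the highest mean, with 0.350, 0.484 and 0.734 FPKM in knockdown, against 0.482, 0.497 and 0.334 FPKM in control. Neither gene separated the groups. Only PCDHA13, an alternate alpha gene, did so: 0.238, 0.161 and 0.160 FPKM in knockdown, against 0.0518, 0.123 and 0.117 FPKM in control. That was 1 of 36 higher and 0 lower, where 4.03% of all genes under 1 FPKM were higher without overlap and 2.54% lower. In the fit with no filter on low values PCDHA13 had a log2 difference of 0.11 and an unadjusted limma p of 0.0388, with an adjusted p of 0.99998; it was the 1 of 53 members under an unadjusted 0.05 there, as were 543 of 18663 genes. Among genes of mean at least 0.1 FPKM its unadjusted limma p was 0.184. PCDHB1 and PCDHGB5 were listed at 0 in some libraries: PCDHB1, the first beta gene, stood at 0.0246, 0 and 0.149 FPKM in knockdown and at 0 in all 3 controls, and PCDHGB5 stood at 0, 0.0619 and 0.0263 FPKM in knockdown and at 0 in all 3 controls.

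How few fragments such levels may stand for can be read from the low beta genes. Their FPKM values are whole-number multiples of a step once multiplied by relative depth (departure at most 0.05). The fewest fragments that give the ratios of PCDHB3 were 4, 4 and 3 in knockdown, against 1, 1 and 3 in control. Those of PCDHB1 were 1, 0 and 6 in knockdown, and 0 in each control. PCDHB5 stood higher, at 45, 53 and 55 in knockdown, against 32, 22 and 44 in control. The true numbers may be a common multiple of these. If the true numbers are near these fewest ones, a difference between groups in PCDHB1 or PCDHB3 would not be detectable. The true numbers are not known.

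Genes that act on, with or beside the clustered protocadherins were compared from 8 lists, and 0 of their 80 tested genes passed the threshold in the limma fit; 1 had an unadjusted p under 0.05. Of 13 genes of promoter architecture (CTCF, cohesin and its loaders and releasers), 7 lay above 0 and 6 below, with a median of 0.01. ZNF143, a zinc finger protein of promoters, had the smallest p there (log2 -0.10), and RAD21, a cohesin subunit, the highest level (log2 -0.08). CTCF itself, named after its values were seen, had 25.9, 25.8 and 22.9 FPKM in knockdown, against 24.8, 26.6 and 26.0 FPKM in control, and the groups overlapped. Of 14 silencing genes, 7 lay above 0 and 7 below; EED, a Polycomb subunit, had a log2 difference of 0.20 (an unadjusted limma p of 0.0508) and TRIM28, a corepressor, one of -0.07. All 3 TET demethylases lay above 0, with TET3, the most abundant, at 0.16.

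SMCHD1, a chromatin protein known in mouse to repress clustered protocadherins, was also named after its values were seen. It had 8.61, 7.76 and 19.0 FPKM in knockdown, against 7.05, 7.81 and 8.63 FPKM in control. Knockdown replicate 4 alone stood out (log2 0.43, SE 0.30), in the library with the highest interferon-response level and the highest beta sum; its part in the members' values was not tested. DNMT3B, a DNA methyltransferase that in mouse marks these promoters, had 4.15, 4.02 and 2.92 FPKM in knockdown, against 4.17, 4.51 and 5.23 FPKM in control. Every knockdown value was below every control value, with an unadjusted limma p of 0.0906 and an adjusted p of 0.9998; DNMT3B too was named after its values were seen. In the same list EED and REST, a repressor of neuronal genes, did not overlap in the other direction. REST stood at 2.24, 2.04 and 1.71 FPKM in knockdown, against 1.70, 1.67 and 1.06 FPKM in control. So 2 of the 14 silencing genes were higher without overlap and 1 lower. Over all genes tested the shares were 4.01% higher and 4.35% lower, 8.36% in either direction. REST was also named after its values were seen, so these separations are no result about the list.

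Downstream of the proteins, 16 cytoplasmic partners (focal adhesion kinases, the WAVE complex and small GTPases) had 9 genes above 0 and 7 below, with BRK1, a WAVE subunit, at 0.14 and RHOA, a GTPase, at -0.16. The 7 genes of proteolytic processing had 5 above and 2 below, with ADAM10, the protease that sheds the ectodomain, at 0.13 and APH1A, a gamma-secretase subunit, at 0.04. Of 12 non-clustered protocadherins 5 were tested, 3 above 0 and 2 below; PCDH10 stood at 0.11 and PCDH1, the most abundant, at -0.02. Of 11 other self-recognition and giant cadherins 4 were tested and all 4 lay above 0, among them CELSR3 (0.12) and DCHS1 (0.05), both of which were below 0 without knockdown replicate 4.

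Of 19 genes that flank the clusters 18 were tested, 10 above 0 and 8 below, with a median of 0.01. DND1, an RNA-binding protein gene upstream of the alpha cluster, had 9.56, 9.53 and 10.4 FPKM in knockdown, against 9.12, 7.13 and 7.99 FPKM in control. Its groups did not overlap, but the test was not passed (log2 0.26, SE 0.10), with an unadjusted limma p of 0.0362 and an adjusted p of 0.9998. Of the 18 tested neighbours, 2 were higher without overlap (DND1 and TAF7) and 1 was lower (TMCO6). Over all genes tested, 4.01% were higher without overlap and 4.35% lower. TAF7 and TMCO6 were named after their values were seen. NDUFA2, a subunit of respiratory complex I and the most abundant neighbour, had a log2 difference of -0.10.

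**Figure D5:**
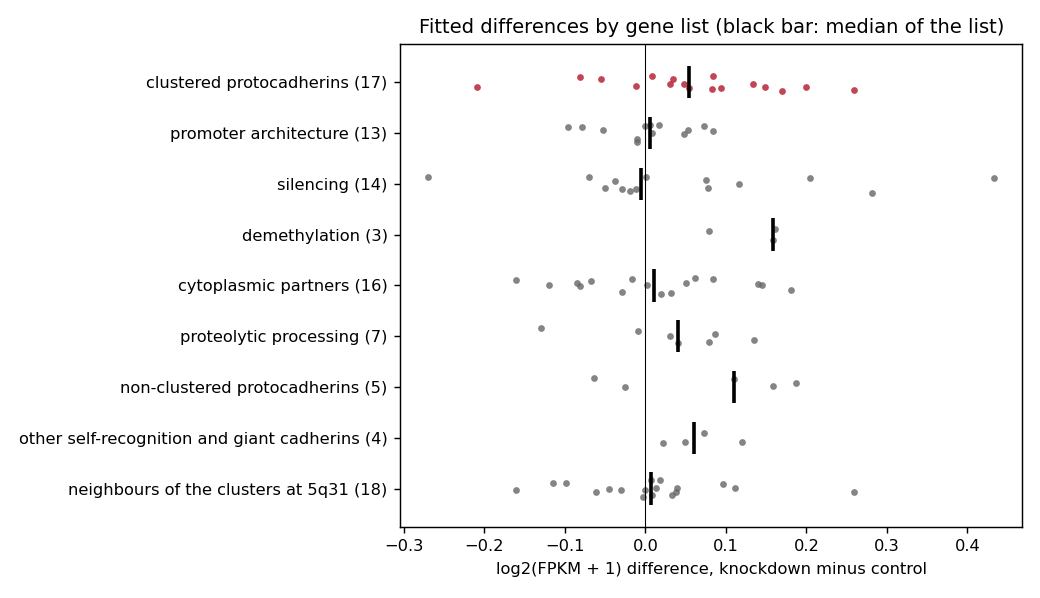
Log2(FPKM + 1) differences, knockdown minus control (horizontal axis), of the tested clustered protocadherins (red) and of the genes of 8 related lists (grey), with the number tested in brackets and the median of each list as a black bar. The medians lie between -0.01 and 0.16, and no gene passed the threshold.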

How the data were processed

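FPKM values of 6 libraries were deposited by the authors in 1 table. The submitters' processing notes name TopHat2, Cuffdiff and the build hg38; tool versions and the gene annotation behind the values are not given. FPKM scales with the mapped total, so very abundant transcripts lower all others. Fragment numbers, and with them intervals, are unknown beyond the steps described. The 12164 genes that averaged 1 FPKM or more were fitted as log2(FPKM + 1) with limma 3.58.1 in R 4.3.3 (trend, no covariate, two-sided, Benjamini-Hochberg). The fit was also run on simulated data, with noise drawn independently for each gene and library. Those data hold no library that deviates as a whole, as knockdown replicate 4 does, so the simulation does not show how the fit performs here. For MIAT, PCDHA3, PCDHA10 and PCDHAC2 exact permutation tests were added.

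Members and lists were chosen with earlier results of these data known; all 145 list entries matched by symbol. Named are MIAT, each member of mean at least 1 FPKM, the highest member of each subgroup, the largest differences, and per list the genes of smallest p and highest mean. Exon sharing came from GENCODE 29 and promoter windows from RefSeq (GRCh38.p14). The alternatives, 18 in number, varied the scale, filter, model and libraries.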

Additional observations from a re-analysis of the deposited data

How the results depend on the processing

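No clustered protocadherin passed the threshold under any of the 18 alternatives; the smallest adjusted limma p of a member was 0.0866 (PCDHA3, log2 0.43, library weights). Of 298 comparisons of a tested member with an alternative, 268 kept their direction and 30 reversed, in 11 members, while 6 members reversed in none. Members above and below 0 numbered 37 and 16 with no filter, 34 and 16 at a mean of at least 0.1 FPKM, and 7 and 2 at a mean of at least 5 FPKM, as more or fewer members were tested; 8 and 9 without both libraries numbered 4; and 7 were below 0 with library weights. Leaving out 1 library gave 7 to 16 above 0 and 1 to 10 below. Library weights put 9 genes higher and 13 lower past the threshold, none a member, and without both libraries numbered 4 it was 1 lower; those weights rest mostly on control replicate 3 (7.98) and knockdown replicate 2 (3.34). MIAT was at -1.58 with library weights (with a limma adjusted p of 0.00299) and -1.54 without both libraries numbered 4. With quantile normalization PCDHA11 was at -0.026 and PCDHB14 at -0.0037. With library weights PCDHB10 was at -0.061, PCDHB14 at -0.041, PCDHB9 at 0.079, PCDHGA1 at -0.037 and PCDHGC3 at -0.0033. Without both libraries numbered 4, PCDHB10 was at -0.079, PCDHB14 at -0.018, PCDHB4 at -0.026, PCDHGA1 at -0.033 and PCDHGC3 at -0.0095. The cause was not tested.

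Log2 differences with 1 library left out spanned 0 for PCDHA11 (-0.065 to 0.082), PCDHA2 (-0.26 to 0.045), PCDHA8 (-0.15 to 0.046), PCDHB10 (-0.12 to 0.12), PCDHB13 (-0.055 to 0.29), PCDHB14 (-0.10 to 0.12), PCDHB4 (-0.075 to 0.20), PCDHB9 (-0.14 to 0.13), PCDHGA1 (-0.012 to 0.30), PCDHGC4 (-0.050 to 0.27), CELSR3 (-0.0079 to 0.24), DCHS1 (-0.050 to 0.17), NDUFA2 (-0.20 to 0.0058), PCDH1 (-0.077 to 0.0061) and RAD21 (-0.14 to 0.0033). They stayed on 1 side of 0 but moved for PCDHA10 (-0.29 to -0.051), PCDHA3 (0.068 to 0.27), PCDHAC2 (0.15 to 0.41), PCDHB15 (0.039 to 0.24), PCDHB16 (0.0025 to 0.28), PCDHB6 (0.038 to 0.079) and PCDHGC3 (0.016 to 0.075).

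Libraries of like number deviated together with r = 0.09, 0.17 and 0.32 for numbers 2, 3 and 4, and knockdown replicate 4 correlated best with its own number while knockdown replicates 2 and 3 did not. The labels do not say what a number marks, so the numbers were not taken as pairs; whether the libraries numbered 4 share a condition was not tested. With the replicate block, 13 members lay above 0 and 4 below, 0 genes passed the threshold, and 520 genes had an unadjusted p under 0.05, against 263 without it.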

Other observations

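The remaining low members are given by subgroup. The 8 alternate alpha genes below 1 FPKM had means of 0.142 (PCDHA13) to 0.729 FPKM (PCDHA12), and PCDHAC1 averaged 0.515 ± 0.19 FPKM in knockdown and 0.613 ± 0.12 FPKM in control (SD, n = 3 each). PCDHA4 was the steadiest of them, with 0.252, 0.240 and 0.274 FPKM in knockdown, against 0.233, 0.233 and 0.244 FPKM in control. PCDHGA10 stood out in 1 library, with 0.650, 0.634 and 1.41 FPKM in knockdown, against 0.641, 0.590 and 0.773 FPKM in control. PCDHB12 was highest in both libraries numbered 4, with 0.693, 0.505 and 0.976 FPKM in knockdown, against 0.482, 0.705 and 1.39 FPKM in control. Gamma A sums were 6.75, 5.51 and 9.02 FPKM in knockdown, against 5.19, 6.03 and 6.68 FPKM in control. Gamma B sums were 1.80, 1.54 and 2.76 FPKM in knockdown, against 1.61, 1.86 and 1.71 FPKM in control, with knockdown replicate 4 the highest of all and control replicate 4 between the other controls.

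Outside the clusters, PCDH17, a non-clustered protocadherin named after its values were seen, had 3.78, 3.42 and 10.0 FPKM in knockdown, against 4.18, 4.25 and 4.79 FPKM in control.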
